A study of Mus musculus with 16 samples.

Results

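The 8 genes described here encode proteins that move ions, protons and water across epithelia: the chloride channel Ano1, the sodium/hydrogen exchanger Slc9a3, the anion transporters Slc26a4 and Slc26a9, the proton/potassium pump Atp12a, the water channels Aqp3 and Aqp5, and the carbonic anhydrase Car2. They were taken by symbol from a deposited table of 41411 genes measured in mouse esophagus. All 8 were present in the table once, and 7 passed the filter on low values (Aqp5 did not). The esophagi came from C57BL/6 mice that were given the hapten OXA (an oxazolone, an ethoxymethylene-phenyl-oxazolinone) to model eosinophilic esophagitis, an allergic inflammation of the esophagus, or vehicle as control. The 4 groups, of 4 libraries each, were Il13ra1-/- mice under OXA (KO OXA), Il13ra1-/- mice under vehicle (KO vehicle), wild-type mice under OXA (WT OXA) and wild-type mice under vehicle (WT vehicle). Il13ra1 is the receptor chain that joins Il4ra to bind IL-13, so the design asks which responses to OXA need that chain. The labels give no age, sex, dose, duration or details of the allele, and do not say that the deletion was limited to any cell type. Whether each library was its own animal is not stated either, so p-values here reflect only the scatter among these samples.

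Epithelia move salt by pairing channels and exchangers on their luminal and basal faces, and water follows through aquaporins. Chloride channels such as Ano1 secrete anions, exchangers such as Slc9a3 take up sodium in return for protons, and carbonic anhydrases supply the protons and bicarbonate that exchangers and pumps move. In stratified squamous epithelium, Aqp3 passes water and glycerol through the membranes of the living layers. In human airway epithelium IL-13 is known to raise ANO1 and SLC26A4, and raised ANO1 and SLC9A3 have been described in the esophagus of people with eosinophilic esophagitis.

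Of the 7 tested genes, 3 changed with OXA in WT esophagus and also differed in that response between the genotypes. These were Slc26a9 and Slc9a3, which fell, and Aqp3, which rose. Over all tested genes, 34.0% were called for the change and 17.8% for the difference, and the share called for both was not counted. The difference was lost when any of 12 of the 16 libraries was left out for Slc26a9, 8 for Slc9a3 and 2 for Aqp3. Of the 3 genes, only Aqp3 kept its difference without the filter and with libraries scaled to equal totals. The fall of Slc26a9 in WT was itself lost when any of 3 libraries was left out, and with equal totals. Atp12a also fell in WT, but its difference did not pass (limma adjusted p = 0.0578). The 250 bases before the RefSeq start sites of Slc26a9, Slc9a3 and Aqp3 are shown (GRCm38.p6, 5′ to 3′ on the gene's strand). The 3 were chosen because Slc26a9 and Slc9a3 moved together across the libraries and Aqp3 moved against both. Capitals mark TATAAA, a motif that was searched on the gene's strand after the sequences had been read. The regions are chr1:131743772-131744021 (+) for Slc26a9, chr13:74121163-74121412 (+) for Slc9a3 and chr4:41098184-41098433 (-) for Aqp3.
Slc26a9: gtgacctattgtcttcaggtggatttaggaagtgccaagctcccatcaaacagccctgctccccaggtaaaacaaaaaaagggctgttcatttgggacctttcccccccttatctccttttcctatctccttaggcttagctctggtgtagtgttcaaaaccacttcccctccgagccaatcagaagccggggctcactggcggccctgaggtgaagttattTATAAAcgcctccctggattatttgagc
Slc9a3: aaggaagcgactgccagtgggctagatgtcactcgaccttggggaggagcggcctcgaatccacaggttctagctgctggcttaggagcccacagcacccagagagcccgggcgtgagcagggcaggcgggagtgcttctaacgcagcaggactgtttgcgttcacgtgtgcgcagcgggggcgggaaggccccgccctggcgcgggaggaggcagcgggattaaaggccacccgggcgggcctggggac
Aqp3: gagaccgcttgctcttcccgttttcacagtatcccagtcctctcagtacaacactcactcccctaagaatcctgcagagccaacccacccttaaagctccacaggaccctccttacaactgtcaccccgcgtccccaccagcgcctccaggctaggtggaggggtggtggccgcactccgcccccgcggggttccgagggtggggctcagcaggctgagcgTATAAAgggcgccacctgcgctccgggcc

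RefSeq promoters, which run from 250 bases before to 50 after the start, were at hand for 6 of the 8 genes (Slc26a9, Slc9a3, Aqp3, Ano1, Slc26a4 and Aqp5). TATAAA began at position -28 in Slc26a9, -29 in Aqp3 and -31 in Slc26a4, counted back from the start site, and was not found in Slc9a3, Ano1 or Aqp5. Over 32851 mouse promoters of the same length, 8.32% held it. On both strands, none of the 6 held TTCNNNNGAA, the spacing known for STAT6 (6.95% of all promoters did), TTCNNNGAA, that of other STAT proteins (8.30%), TGANTCA, an AP-1 site (7.81%), or AACCNGGTT, a grainyhead site (0.271%). These counts cover only those letters in those windows. The RefSeq start differed from the start of the deposited gene by -44 bases (upstream) for Slc9a3 and -15 for Slc26a4, and lay 246 bases downstream for Aqp5 and 13401 for Ano1, so the window of Ano1 lies inside the deposited gene and that of Aqp5 mostly so.

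Values are deposited normalized counts (counts scaled by a size factor), from CEL-Seq, which reads short tags at the 3′ ends of transcripts. Recovered depth was 8.82 to 15.2 M reads in KO OXA, 7.91 to 16.5 M in KO vehicle, 20.2 to 27.3 M in WT OXA and 5.61 to 9.55 M in WT vehicle, so the WT OXA libraries were the deepest. Of 8 squamous markers, 7 were read in every group, Krt4 and Krt13 at the highest levels, and Sox2 was listed at 0 in all libraries. Smooth and skeletal muscle genes were read in every group too, so the samples held wall as well as epithelium. Il13ra1 averaged 99.1 ± 56.9 in KO OXA, 50.1 ± 14.2 in KO vehicle, 721 ± 123 in WT OXA and 191 ± 39.8 in WT vehicle (SD, n = 4 each). KO minus WT was -3.02 ± 0.32 under OXA on the log2(value + 1) scale (SE; limma adjusted p = 1.1e-06) and -1.93 ± 0.32 under vehicle, and every KO library lay below every WT library of the same treatment. The reads left in KO were not placed relative to the deleted part of the gene. The IL-13 target Chil4, a chitinase-like protein, averaged 1732 in KO OXA, 436 in KO vehicle, 178991 in WT OXA and 1397 in WT vehicle.

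**Figure D1:**
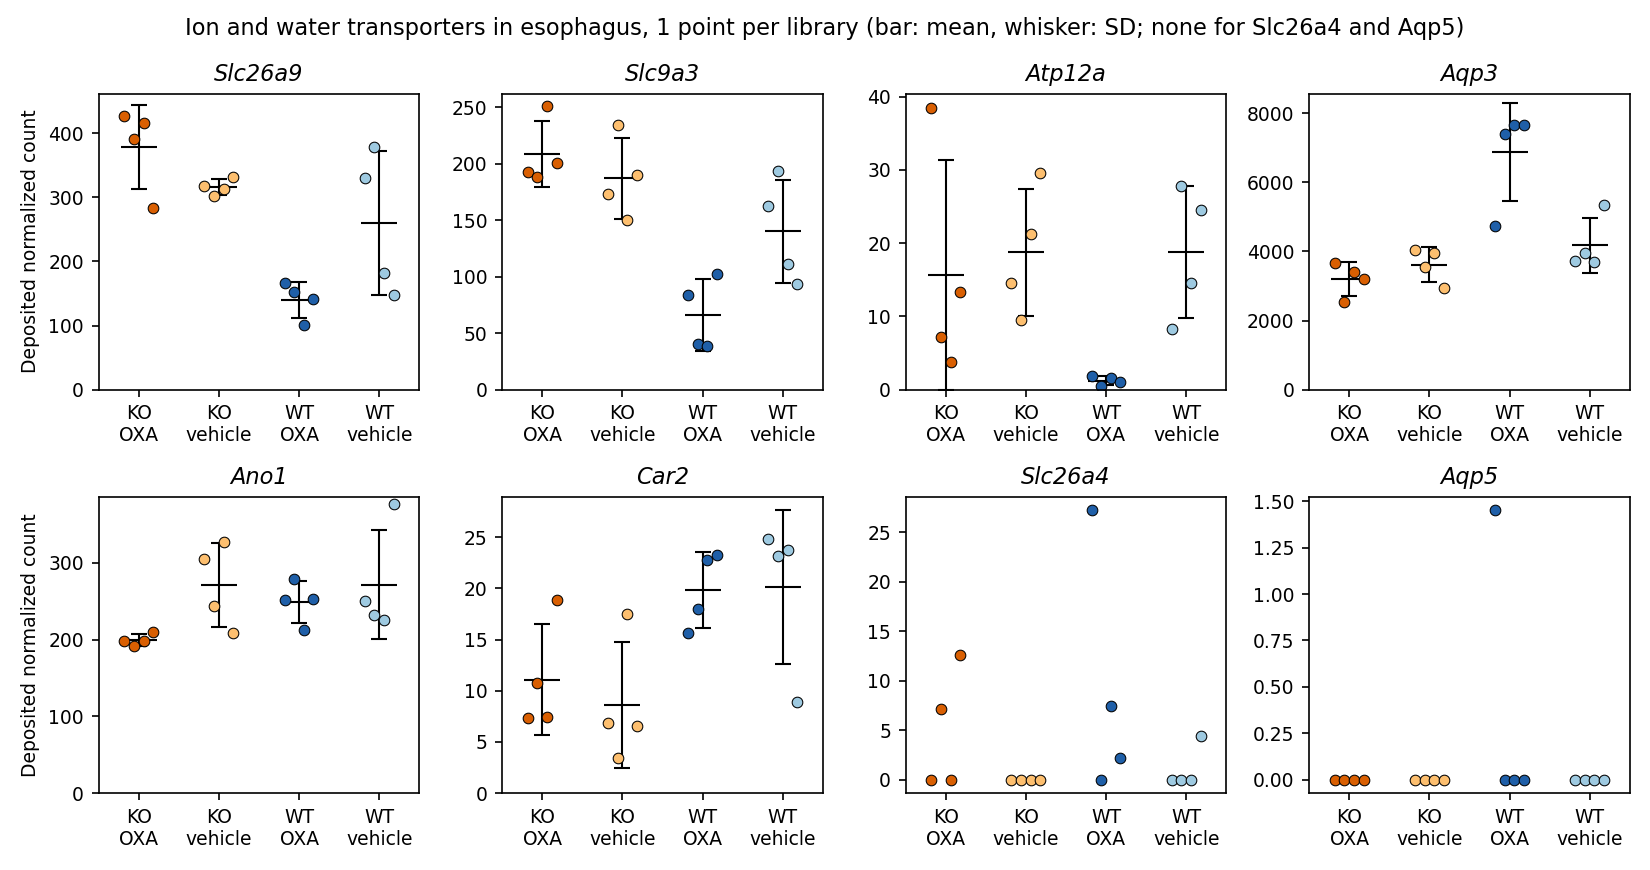
Deposited normalized counts of the 8 transporters (vertical axes, each with its own scale), 1 point per library, in KO OXA, KO vehicle, WT OXA and WT vehicle. Bars and whiskers give mean and SD (n = 4) and are left out for Slc26a4 and Aqp5, where most libraries are at 0. Atp12a lies between 0.51 and 1.81 in WT OXA and at 3.71 or more in the other 3 groups, and Aqp3 is highest in WT OXA, with 7402, 7647 and 7672 in 3 of its libraries.

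In WT mice, OXA lowered Slc26a9, Slc9a3 and Atp12a and raised Aqp3, while Ano1, Car2 and Slc26a4 did not pass the test. The test was limma on log2(value + 1) over all 16 libraries, two-sided, with Benjamini-Hochberg adjustment over 16748 genes and a threshold of 0.05. That is 4 of the 7 tested transporters, where 34.0% of all tested genes were called (3019 higher and 2673 lower, against 5118 and 1495 with equal library totals). In KO mice none of the 7 was called with OXA, where 1.90% of all genes were. There 1 of the 7 had an unadjusted p under 0.05 in limma, and edgeR and DESeq2 called 0 each. The difference between the genotypes in the OXA effect was called for 3 of the 7, Slc26a9, Slc9a3 and Aqp3 (17.8% of all genes). The median log2 fold change of the 7 in WT was -0.10, beside 0.10 over all genes, and in KO it was 0.16, beside -0.01. Both medians of the 7 lean upward, because they include Slc26a4, which passed the filter only through OXA libraries. Because these are whole-tissue samples, fewer cells of a type and less RNA per cell cannot be told apart.

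Slc26a9 (ENSMUSG00000042268, GRCm38 chromosome 1, 131744022 to 131771504, plus strand) encodes a chloride transporter of epithelial surfaces. Its values were 427, 391, 416 and 284 in KO OXA and 318, 302, 313 and 332 in KO vehicle. They were 166, 152, 101.2 and 141 in WT OXA and 330.45, 379, 182 and 147 in WT vehicle. The KO vehicle libraries lay close together, the WT vehicle libraries were spread from 147 to 379, and every WT OXA library but replicates 1 and 2 lay below every WT vehicle library. The means were 379 ± 65.6, 316 ± 12.2, 140.1 ± 27.8 and 259.6 ± 112 in KO OXA, KO vehicle, WT OXA and WT vehicle (SD, n = 4). In WT, OXA lowered it by a log2 fold change of -0.80 ± 0.25 (SE; adjusted p = 0.0182), or 1.74-fold. This call was lost in limma without WT vehicle replicate 1 (adjusted p = 0.0653) or 2 (0.0686), without WT OXA replicate 3 (0.0728), with the 2 WT groups fitted alone (0.0589) and with equal library totals (0.118). In KO the fold change was 0.24 ± 0.25 (adjusted p = 0.712, 95% interval -0.28 to 0.77).

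The OXA effect on Slc26a9 in KO exceeded that in WT by 1.04 ± 0.35 (limma adjusted p = 0.0466). It had the highest adjusted p of the 3 called differences. It was lost when any of 12 of the 16 libraries was left out, that is, all but WT vehicle 3 and 4, WT OXA 1 and KO OXA 4 (adjusted p = 0.106 at most). It was also lost without the filter (0.0798), without the trend (0.0803) and with equal library totals (0.197). Under OXA alone the genotypes stood apart. All 4 KO libraries were above all 4 WT libraries, and the fold change was 1.44 ± 0.25 (adjusted p = 0.000246), or 2.71-fold. Under vehicle the KO minus WT difference was 0.39 ± 0.25 (adjusted p = 0.635).

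Slc9a3 (ENSMUSG00000036123, chromosome 13, 74121457 to 74169442, plus strand) encodes NHE3, which takes up luminal sodium in exchange for protons in intestine and kidney. It had 193, 188, 251 and 201 in KO OXA and 173.5, 234, 149.9 and 190.4 in KO vehicle. It had 83.5, 40.03, 38.8 and 103 in WT OXA and 162, 193, 111 and 93.6 in WT vehicle. WT OXA replicate 4 reached into the WT vehicle range, while no WT OXA library reached any KO library. OXA lowered Slc9a3 in WT by a log2 fold change of -1.14 ± 0.30 (limma adjusted p = 0.00586), or 2.2-fold, and the group means were 66.2 ± 31.9 in WT OXA and 140.1 ± 45.9 in WT vehicle. In KO the means were 208 ± 29.2 under OXA and 187 ± 35.4 under vehicle, with a fold change of 0.16 ± 0.30 (adjusted p = 0.857, 95% interval -0.46 to 0.78).

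The OXA effects on Slc9a3 differed between the genotypes by 1.30 ± 0.42 (limma adjusted p = 0.0372). That call was lost without the filter (0.0648), without the trend (0.0626), with equal library totals (0.136) and when any of 8 libraries was left out (adjusted p = 0.0876 at most). These 8 were WT vehicle replicates 1 and 2, WT OXA 2 and 3, KO vehicle 1, 3 and 4 and KO OXA 3. Under OXA, KO exceeded WT by 1.76 ± 0.30 (adjusted p = 0.000186), or 3.38-fold, with no overlap. Under vehicle the difference was 0.45 ± 0.30 (adjusted p = 0.643).

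Atp12a (ENSMUSG00000022229, chromosome 14, 56365068 to 56388550, plus strand) encodes the non-gastric proton/potassium pump, which acidifies the airway surface in humans. It was a low gene, with 174 reads over all 16 libraries. Its values were 38.5, 7.14, 3.71 and 13.4 in KO OXA and 14.6, 9.49, 21.3 and 29.5 in KO vehicle. They were 1.81, 0.51, 1.57 and 1.08 in WT OXA, which stood on 12 reads, and 8.26, 27.8, 14.6 and 24.5 in WT vehicle, which stood on 43. The WT OXA libraries were below every other library in the series. Atp12a was the one transporter of the 7 whose WT OXA and WT vehicle libraries did not overlap in this direction (15.7% of all genes were lower without overlap), and 0 of the 7 were higher without overlap (18.5%).

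The log2 fold change of Atp12a in WT was -3.05 ± 0.62 (limma adjusted p = 0.000846), 8.27-fold on the log2(value + 1) scale, and it was called under every alternative and without each library. In KO it was -0.59 ± 0.62 (adjusted p = 0.721, 95% interval -1.88 to 0.70). The effects differed by 2.46 ± 0.88, just short of the threshold (adjusted p = 0.0578), and edgeR (0.0205) and DESeq2 (0.00394) called that difference. Limma called it without WT vehicle replicate 1 (0.0382) or KO OXA replicate 3 (0.0266), which holds the lowest KO value. Under OXA, KO exceeded WT by 2.48 ± 0.62 (adjusted p = 0.00511). An antisense gene, Gm10873, overlaps Atp12a and had 11 reads in all. The use of strand in the counting is not given in the sources used here, so reads of the pair cannot be told apart.

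Levels of some marker genes differed between the same groups. The summed level of 8 airway genes, all in the table, was 17176 to 32856 in KO OXA, 25504 to 34082 in KO vehicle, 624 to 1053 in WT OXA and 35764 to 54364 in WT vehicle. Nearly all of it was Cyp2f2, a cytochrome P450 known from club cells, which averaged 24609 in KO OXA, 30607 in KO vehicle, 848 in WT OXA and 41264 in WT vehicle. The club cell secretoglobin Scgb1a1 averaged 35.5 in KO OXA, 57.8 in KO vehicle, 10.9 in WT OXA and 92.0 in WT vehicle, and Foxj1, Sftpb, Scgb3a2, Scgb3a1, Bpifa1 and Sftpc averaged under 10 in every group. The squamous sum of the esophagus's own epithelium, carried by Krt4 and Krt13, was 508091 to 834093 in WT OXA and 1241940 to 1848360 in WT vehicle. Krt6a, a keratin of activated keratinocytes, averaged 87445 in WT OXA and 1016 in WT vehicle, and the basal keratin Krt14 averaged 12461 in WT OXA and 3026 in WT vehicle. Dsg3 averaged 1099.5 in WT OXA and 447 in WT vehicle, Trp63 2456 in WT OXA and 2136 in WT vehicle, and Krt5 16918 in WT OXA and 20139 in WT vehicle, so these 5 did not share the size or direction of the fall in the sum. The squamous sum in KO was 1235170 to 2687950 under OXA and 1319550 to 1625860 under vehicle. Krt6a averaged 7159 in KO OXA and 1350 in KO vehicle, and Krt14 3590 in KO OXA and 2226 in KO vehicle. In KO OXA and KO vehicle, Dsg3 averaged 477 and 390, Trp63 2111 and 2181, and Krt5 17894 and 17220. Skeletal muscle genes summed to 76995 to 140688 in WT OXA and 137503 to 262087 in WT vehicle. Smooth muscle genes summed to 20744 to 35832 in WT OXA and 28729 to 55365 in WT vehicle. Endothelial genes summed to 1067 to 1820 in WT OXA and 652 to 738 in WT vehicle. Macrophage genes summed to 3716 to 4510 in WT OXA and 2246 to 3168 in WT vehicle. They were also higher with OXA in KO, at 3682 to 8258 in KO OXA and 1259 to 1995 in KO vehicle. Endothelial genes summed to 267 to 645 in KO OXA and 535 to 714 in KO vehicle. Skeletal muscle genes summed to 119126 to 190363 in KO OXA and 176380 to 234444 in KO vehicle. For smooth muscle these sums were 19284 to 35603 in KO OXA and 31539 to 35575 in KO vehicle. The 9 glandular stomach genes summed to 125 to 246 in KO OXA and 61.4 to 708 in KO vehicle. Their sum was 75.9 to 923 in WT OXA and 60.2 to 1992 in WT vehicle, mostly through Tff1. Tff1 averaged 153 in KO OXA, 227 in KO vehicle, 311 in WT OXA and 765 in WT vehicle. The part of these levels and shifts in the transporter results was not tested. Depth bears on the low genes, and after thinning every library to 5.61 M reads the WT fold changes were -0.90 for Slc26a9, -1.22 for Slc9a3, -3.52 for Atp12a and 0.71 for Aqp3, all still called.

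Aqp3 (ENSMUSG00000028435, chromosome 4, 41092722 to 41098183, minus strand) had 97066 reads over the series. Its values were 3674.5, 2542, 3406 and 3203 in KO OXA and 4037, 3546, 3947 and 2943 in KO vehicle. They were 4747, 7402, 7647 and 7672 in WT OXA and 3716, 3949.8, 3687 and 5349 in WT vehicle. WT OXA replicate 1 was low for its group and fell below WT vehicle replicate 4, which was high for its own. All WT OXA libraries lay above all KO OXA libraries. The means were 3207 ± 483 in KO OXA, 3618 ± 498 in KO vehicle, 6867 ± 1419 in WT OXA and 4175 ± 791 in WT vehicle (SD, n = 4).

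OXA raised Aqp3 in WT by a log2 fold change of 0.71 ± 0.18 (limma adjusted p = 0.00529), or 1.63-fold, under every alternative and without each library. In KO the fold change was -0.18 ± 0.18 (adjusted p = 0.714, 95% interval -0.56 to 0.20). The effects differed by -0.88 ± 0.26 (adjusted p = 0.0220), a call lost in limma without WT OXA replicate 3 (0.0517) or KO vehicle replicate 1 (0.0515). Under OXA, the KO minus WT difference was -1.08 ± 0.18 (adjusted p = 0.000171), KO being 2.12-fold lower. Under vehicle the difference was -0.20 ± 0.18 (adjusted p = 0.757).

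**Figure D2:**
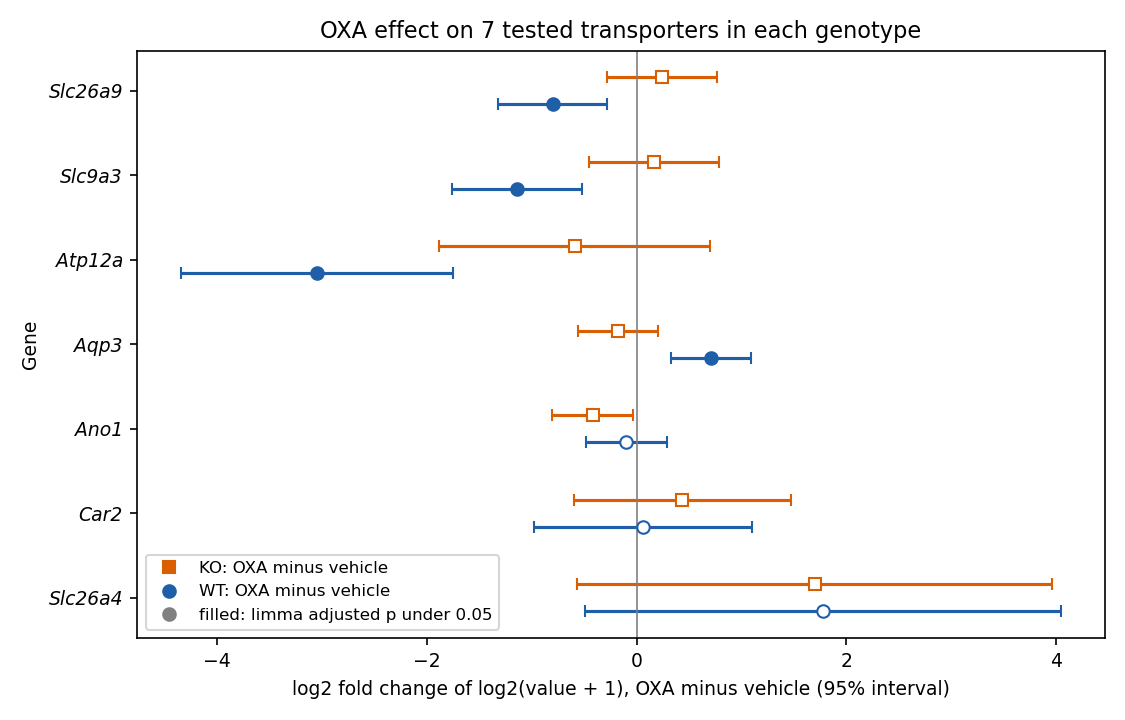
Log2 fold change of log2(value + 1), OXA minus vehicle (horizontal axis), in KO (squares, upper) and WT (circles, lower) for the 7 tested transporters, with 95% intervals. Filled symbols passed limma at an adjusted p under 0.05. In WT, Slc26a9 (-0.80), Slc9a3 (-1.14) and Atp12a (-3.05) lie left of 0 and Aqp3 (0.71) right of it, and no KO symbol is filled.

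Ano1 (ENSMUSG00000031075, chromosome 7, 144588549 to 144751974, minus strand) encodes the calcium-activated chloride channel of secretory epithelia, airway goblet cells and the interstitial cells of Cajal, the pacemakers of gut muscle. Its values were 198, 192, 198 and 209.6 in KO OXA and 305, 243, 327 and 208 in KO vehicle. They were 252, 279, 213 and 253 in WT OXA and 251, 232, 226 and 377 in WT vehicle. The KO OXA libraries lay together at the low end and below all WT OXA libraries, and the other 3 groups overlapped throughout. The OXA effect in WT was -0.10 ± 0.19 (limma adjusted p = 0.728, 95% interval -0.48 to 0.29), and with equal library totals its sign turned (0.22, limma adjusted p = 0.404). Relative to the median of all genes this effect was -0.19 under that scaling and -0.20 otherwise, values that must be close because the scaling moves all genes alike. In KO it was -0.42 ± 0.19, with an unadjusted p of 0.0357 and an adjusted p of 0.310.

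The KO effect of OXA on Ano1 minus the WT effect was -0.32 ± 0.26 (limma adjusted p = 0.432). In OXA mice KO minus WT was -0.31 ± 0.19 (adjusted p = 0.228). The difference under OXA passed with equal library totals (-0.73, adjusted p = 0.00834), which moved the median of all genes there to -0.44. Relative to the median of all genes Ano1 was at -0.28 there and at -0.27 under the deposited scaling, again close by construction. The 5 genes listed for Cajal cells, Ano1 among them, summed to 617 to 684 in KO OXA, 584 to 1030.3 in KO vehicle, 693 to 943 in WT OXA and 816 to 1357 in WT vehicle. Kit, the receptor that marks Cajal and mast cells, averaged 20.9 in KO OXA, 30.1 in KO vehicle, 52.2 in WT OXA and 18.3 in WT vehicle. Etv1, a transcription factor of Cajal cells, averaged 158 in KO OXA, 156 in KO vehicle, 150.1 in WT OXA and 153 in WT vehicle. The other 2 listed genes averaged, for Thbs4, 253 in KO OXA, 346 in KO vehicle, 360 in WT OXA and 573 in WT vehicle, and, for Edn3, 28.4 in KO OXA, 47.7 in KO vehicle, 36.3 in WT OXA and 47.2 in WT vehicle. Their part in the Ano1 values was not tested. The antisense gene Gm44930 inside Ano1 had 0 reads.

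Car2 (ENSMUSG00000027562, chromosome 3, 14886273 to 14900770, plus strand), a cytosolic carbonic anhydrase of red blood cells and many epithelia, had 310 reads in all. It had 7.33, 10.7, 7.43 and 18.9 in KO OXA and 6.82, 3.45, 17.5 and 6.57 in KO vehicle. It had 15.6, 17.96, 22.8 and 23.2 in WT OXA and 24.8, 23.2, 23.7 and 8.91 in WT vehicle. The KO libraries were mostly lower than the WT libraries, but 1 library of each KO group and WT vehicle replicate 4 crossed over. Neither the OXA effect in WT (0.06 ± 0.50, limma adjusted p = 0.938, 95% interval -0.98 to 1.1) nor that in KO (0.44 ± 0.50, adjusted p = 0.747) passed. KO minus WT was -1.24 ± 0.50 under vehicle (unadjusted p = 0.0215, adjusted p = 0.502) and -0.87 ± 0.50 under OXA (adjusted p = 0.213). The red cell genes, 6 of 6 in the table, summed to 4255 to 11113 in KO OXA, 5394 to 11978 in KO vehicle, 4637 to 8345 in WT OXA and 5966 to 11046 in WT vehicle.

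Slc26a4 (ENSMUSG00000020651, chromosome 12, 31519827 to 31559969, minus strand) encodes pendrin, an exchanger of chloride for bicarbonate or iodide in thyroid, kidney and inflamed airway. It was read in 2 KO OXA libraries (7.14 and 12.6), in no KO vehicle library, in 3 WT OXA libraries (27.2, 7.45 and 2.16) and in 1 WT vehicle library (4.46, from 2 reads). It passed the filter only through the 2 libraries of each OXA group that reached 5, so its OXA fold changes were bound to lean upward and are given as a description. Each OXA group also held a library at 0. The log2 fold changes with OXA were 1.78 ± 1.09 in WT (limma adjusted p = 0.221) and 1.70 ± 1.09 in KO (adjusted p = 0.515), with 95% intervals of -0.49 to 4.05 and -0.57 to 3.97. Summed over a group, WT OXA had 98 reads, 1.05 per M reads, against 2 reads, 0.0654 per M reads in WT vehicle. Of the 98 reads, 75 came from WT OXA replicate 1, and without it the level in WT OXA was 0.349 per M reads. In KO, OXA had 22 reads, 0.475 per M reads, and in KO vehicle the 0 reads allow up to 0.0583 per M reads (3 reads, counting error only).

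Of 7 thyroid genes beside Slc26a4, Tg and Slc5a5, which define thyroid cells, averaged at most 5.22 in any group. The sum of the 7 was 88.1 to 208 in KO OXA and 173 to 228 in KO vehicle. In WT it was 39.9 to 89.3 under OXA and 136 to 285 under vehicle. Foxe1 made up most of it except in WT OXA, where Foxe1 averaged 28.3 and Tshr 24.0. Aqp5 (ENSMUSG00000044217, chromosome 15, 99590782 to 99594829, plus strand), the apical water channel of salivary and airway glands, had 4 reads in WT OXA replicate 1 (1.45) and 0 in the other 15 libraries. At this depth 0 reads allow up to 0.0648 per M reads in KO OXA, 0.0583 in KO vehicle and 0.0981 in WT vehicle. Of 12 salivary and submucous gland genes, 6 were at 0 in every library, among them Smgc and the Dcpp genes. Of those read, Amy1, an amylase, averaged 187 in KO OXA, 205 in KO vehicle, 117 in WT OXA and 129 in WT vehicle. Ltf, the antimicrobial lactoferrin, averaged 1.24 in KO OXA, 2.50 in KO vehicle, 23.0 in WT OXA and 0.345 in WT vehicle. Lpo, a peroxidase, averaged 6.42 in KO OXA, 0.893 in KO vehicle, 8.60 in WT OXA and 0.345 in WT vehicle. Bhlha15 averaged 6.92 in WT OXA and under 1 in the other groups.

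By mean level, the groups ran KO OXA, KO vehicle, WT vehicle, WT OXA from high to low for both Slc26a9 and Slc9a3, and WT OXA, WT vehicle, KO vehicle, KO OXA for Aqp3. Atp12a ran WT vehicle, KO vehicle, KO OXA, WT OXA. Among the 3 pairs of neighbours in each order, ranges were apart for Atp12a between KO OXA and WT OXA and for Ano1 between WT OXA and KO OXA, and overlapped elsewhere. Under OXA, 3 of the 7 were higher in KO with no overlap (Slc26a9, Slc9a3 and Atp12a, where 14.0% of all genes were) and 2 were lower (Aqp3 and Ano1, 15.3%). In that comparison limma called 4 of the 7 (Slc26a9, Slc9a3, Atp12a and Aqp3), beside 27.6% of all genes. It shares the WT OXA libraries with the OXA effect in WT. Under vehicle none of the 7 was called in limma, edgeR or DESeq2, with 1 unadjusted p under 0.05 (Car2), and 0.0597% of all genes were called.

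Across the 16 libraries, Slc26a9 and Slc9a3 moved together on the log2(value + 1) scale (Pearson r = 0.89), and each ran against Aqp3 (-0.84 for Slc26a9 and -0.85 for Slc9a3). After subtraction of the group means the same pairs gave 0.60, -0.40 and -0.37, pooled over all 16 libraries. Whether the pattern held within any single group was not tested. Slc9a3 and Atp12a had r = 0.63 across all libraries and -0.13 after that subtraction. These are descriptions over 16 libraries that share their groups, depth and size factors.

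**Figure D3:**
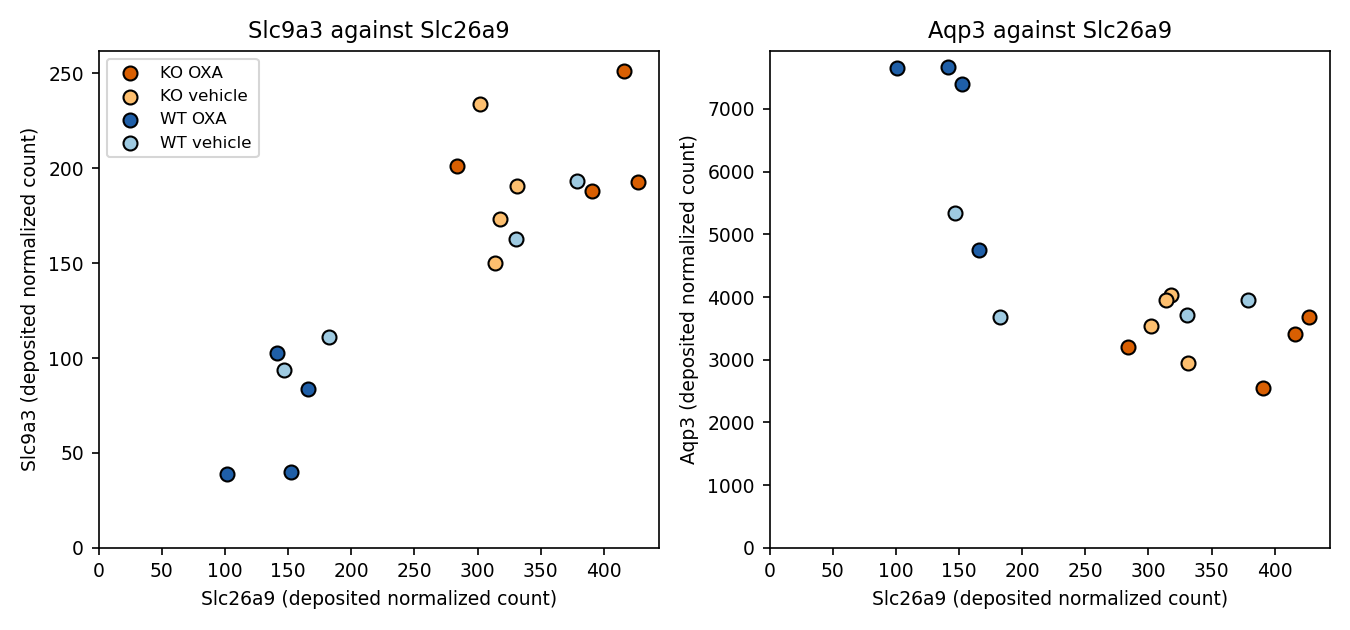
Slc9a3 (left) and Aqp3 (right) against Slc26a9 in the 16 libraries, all as deposited normalized counts, coloured by group. WT OXA libraries sit at low Slc26a9 (101.2 to 166) with low Slc9a3 and high Aqp3, and KO libraries of both treatments sit at 284 to 427.

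The genes whose profiles were most like each transporter, by r of log2(value + 1) over the 16 libraries, were taken 3 per transporter. For Slc26a9 they were Zranb1 (0.97), Tuft1 (0.96) and Ereg (0.95), and for Slc9a3 they were Aloxe3 (0.94), Ereg (0.94) and Tuft1 (0.93). Aloxe3, a lipoxygenase of the epidermal barrier, averaged 3694 ± 224 in KO OXA, 3621 ± 343 in KO vehicle, 925 ± 207 in WT OXA and 2641 ± 901 in WT vehicle. Ereg, the growth factor epiregulin, averaged 551 in KO OXA, 379 in KO vehicle, 137 in WT OXA and 333 in WT vehicle. For Aqp3 they were Jup, a protein of cell junctions (0.94), Coro1c, an actin-binding protein (0.94), and Lmnb1, a lamin (0.93). Jup averaged 1186 in KO OXA, 1191 in KO vehicle, 2182 in WT OXA and 1410.3 in WT vehicle. For Atp12a they were Kxd1 (0.95), Adh1 (0.94) and Rgcc (0.94), for Ano1 Bcor (0.85), Atp2b4 (0.84) and Samd4b (0.84), for Car2 Slc3a2 (0.81), Ccdc114 (0.81) and Ston2 (0.79), and for Slc26a4 Kdm4a (0.75), Tpst2 (0.74) and Tor1aip1 (0.73).

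A wider list of 148 ion and water transport genes places the 8 among their families; 147 were in the table and 106 were tested. In WT, OXA raised 20 and lowered 16 of the 106, where 34.0% of all genes were called (18.0% higher and the remainder lower, the shares to set beside the family counts that follow), and their median log2 fold change was 0.15, beside 0.10 over all genes. In KO, 2 rose and none fell (1.90% of all genes), and DESeq2 called 5 of the 106. The OXA effects differed between the genotypes for 18, 8 in the positive and 10 in the negative direction (17.8%). Under OXA, 13 were higher and 21 lower in KO (27.6%). Under vehicle none was called in limma, edgeR or DESeq2 (9 had an unadjusted p under 0.05). Scaling to equal library totals moved the median of all genes in WT to 0.41. It moved the split of the transport genes to 31 higher and 11 lower (5118 and 1495 over all genes). For the genotype difference in the OXA effect, it moved the median of all genes to -0.53 (otherwise -0.10). The split there became 5 positive and 24 negative (883 and 3467 over all genes).

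Among carbonic anhydrases, OXA lowered 3 of 12 in WT and raised none, though equal library totals added 1 higher gene. Car12, a membrane enzyme that faces the outside of epithelial cells, averaged 2321 ± 331 in KO OXA, 2113 ± 93.3 in KO vehicle, 724 ± 201 in WT OXA and 2537 ± 394 in WT vehicle. Its WT effect was -1.84 ± 0.18 (limma adjusted p = 2.19e-07), and the effects differed by 1.96 ± 0.25 (2.52e-05). The cytosolic Car13 averaged 4291 ± 1768 in KO OXA, 2166 ± 667 in KO vehicle, 781 ± 294 in WT OXA and 3023 ± 451 in WT vehicle. Its WT effect was -2.03 ± 0.31 (adjusted p = 5.03e-05) and the effects differed by 2.94 ± 0.43 (0.000133). The third was Car14 (-1.47), named after its value was seen. Car4 had 1.77 ± 0.91 in WT and did not pass (adjusted p = 0.145).

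Of 12 sodium/hydrogen exchangers and their scaffolds, 5 rose in WT with OXA and none fell, also with equal library totals, and 4 rose with quantile scaling. Among those that rose were Slc9a9 (1.11), Slc9a5 (1.86), Slc9a7 (2.12) and the scaffold Slc9a3r1 (0.51), named after their values were seen, so their WT effects and that of Slc9a3 had opposite signs. Slc9a2, a relative of Slc9a3 in gut epithelium, had 0.35 ± 0.66 in WT (adjusted p = 0.715).

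Among the 11 anion exchangers and bicarbonate cotransporters, 3 rose and 1 fell in WT. Slc4a7, a sodium/bicarbonate cotransporter, averaged 378 ± 78.7 in KO OXA, 317 ± 55.8 in KO vehicle, 564 ± 45.2 in WT OXA and 245 ± 50.2 in WT vehicle. Its WT effect was 1.22 ± 0.18 (limma adjusted p = 4.76e-05). Slc4a11, of the same family, had a WT effect of 2.58 ± 0.48 (0.000366). The KO minus WT differences in effect were -0.97 ± 0.26 for Slc4a7 (0.0135) and -2.31 ± 0.67 for Slc4a11 (0.0221, lost without the filter at 0.0578). Slc26a6, a chloride/bicarbonate exchanger, had -0.45 in WT (adjusted p = 0.287), and Slc26a3 stayed under the filter.

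Of 26 other chloride channels and their regulators, 4 rose and 6 fell in WT, against 7 and 3 with equal library totals. Clic3, an intracellular chloride channel protein, averaged 1692 ± 410 in KO OXA, 1762 ± 80.8 in KO vehicle, 609 ± 72.1 in WT OXA and 1876 ± 295 in WT vehicle. Its WT effect was -1.62 ± 0.16 (limma adjusted p = 4.54e-07) and differed from that in KO by 1.53 ± 0.23 (0.00017). Its relative Clic4 rose by 1.19 ± 0.21 (0.000251), as did Ano6, a lipid scramblase of the same family as Ano1, by 0.71 ± 0.15 (0.00154). Ano9 had -0.85 ± 0.26 (0.0148), a call lost without WT vehicle replicate 2 (0.0555) and with equal library totals (0.0992). Cftr and Clca3b stayed under the filter. Clca1, known from goblet cells, had -2.51 ± 0.92 in WT (adjusted p = 0.0399) on means of 1.1 in WT OXA and 10.4 in WT vehicle. That call was lost under 8 alternatives, among them without WT vehicle replicate 1, 2 or 4 or WT OXA replicate 3 or 4. Clca2, a calcium-activated chloride channel regulator of keratinocytes, was 1 of the 2 genes that rose in KO (0.69 ± 0.16, adjusted p = 0.0213), with 721 ± 84.4 in KO OXA and 444 ± 31.9 in KO vehicle. That call was lost without KO vehicle replicate 1, 2 or 3 or KO OXA replicate 1 or 2 (adjusted p = 0.0897 at most), without the trend (0.0512) and with equal library totals (0.116).

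Of 21 pumps and their regulators, 3 rose and 5 fell in WT, and 4 rose with equal library totals. Fxyd3, a small modulator of the sodium pump, averaged 1932 ± 384 in KO OXA, 1875 ± 274 in KO vehicle, 785 ± 175 in WT OXA and 2525 ± 308 in WT vehicle. Its WT effect was -1.71 ± 0.18 (limma adjusted p = 6.51e-07) and differed from that in KO by 1.74 ± 0.25 (0.000105). Fxyd2 (-1.98 ± 0.37, adjusted p = 0.000401) and the sodium pump subunit Atp1b3 (-0.93 ± 0.16, 0.000237) fell too. The calcium pumps Atp2b1 of the plasma membrane (1.27 ± 0.20, 7.68e-05) and Atp2a2 of the endoplasmic reticulum (0.72 ± 0.13, 0.000348) rose. Atp4a, the gastric relative of Atp12a, stayed under the filter. None of the 5 other tested aquaporins was called in WT by limma, among them Aqp1 of vessels (-0.36, adjusted p = 0.315) and Aqp9 (1.13, 0.118), but 2 rose with equal library totals.

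Of 19 sodium and potassium channels and cotransporters, 5 rose and 1 fell in WT, against 9 and 0 with equal library totals. Slc5a8, a sodium-coupled carrier of short-chain fatty acids, averaged 30.0 ± 15.4 in KO OXA, 7.04 ± 6.27 in KO vehicle, 224 ± 75.2 in WT OXA and 7.09 ± 2.47 in WT vehicle. Its WT effect was 4.79 ± 0.58 (limma adjusted p = 4.44e-06), the largest of the 106 genes. It was also called in KO (2.27 ± 0.58, 0.0472), but that call was lost under 17 alternatives, among them a fit to the 2 KO groups alone (0.211). These included leaving out any WT OXA library, WT vehicle 1, 2 or 3, KO vehicle 2 or 3 or KO OXA 2 or 3. The difference of -2.52 ± 0.82 (0.0382) was lost under 15, among them without WT vehicle 1 or 4, WT OXA 1, 3 or 4, KO vehicle 1 or 4 or KO OXA 1 or 3. The glucose carrier Slc5a1 rose in WT by 1.65 ± 0.23 (2.16e-05) and the potassium channel Kcnn4 by 2.30 ± 0.58 (0.00473). The subunits of the epithelial sodium channel did not pass in WT: Scnn1a had 0.40 ± 0.17 (0.0801), Scnn1b 0.16 ± 0.39 (0.783) and Scnn1g 1.22 ± 0.48 (0.0539). The chloride-loading cotransporter Slc12a2 had 0.06 ± 0.13 (0.759).

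**Figure D4:**
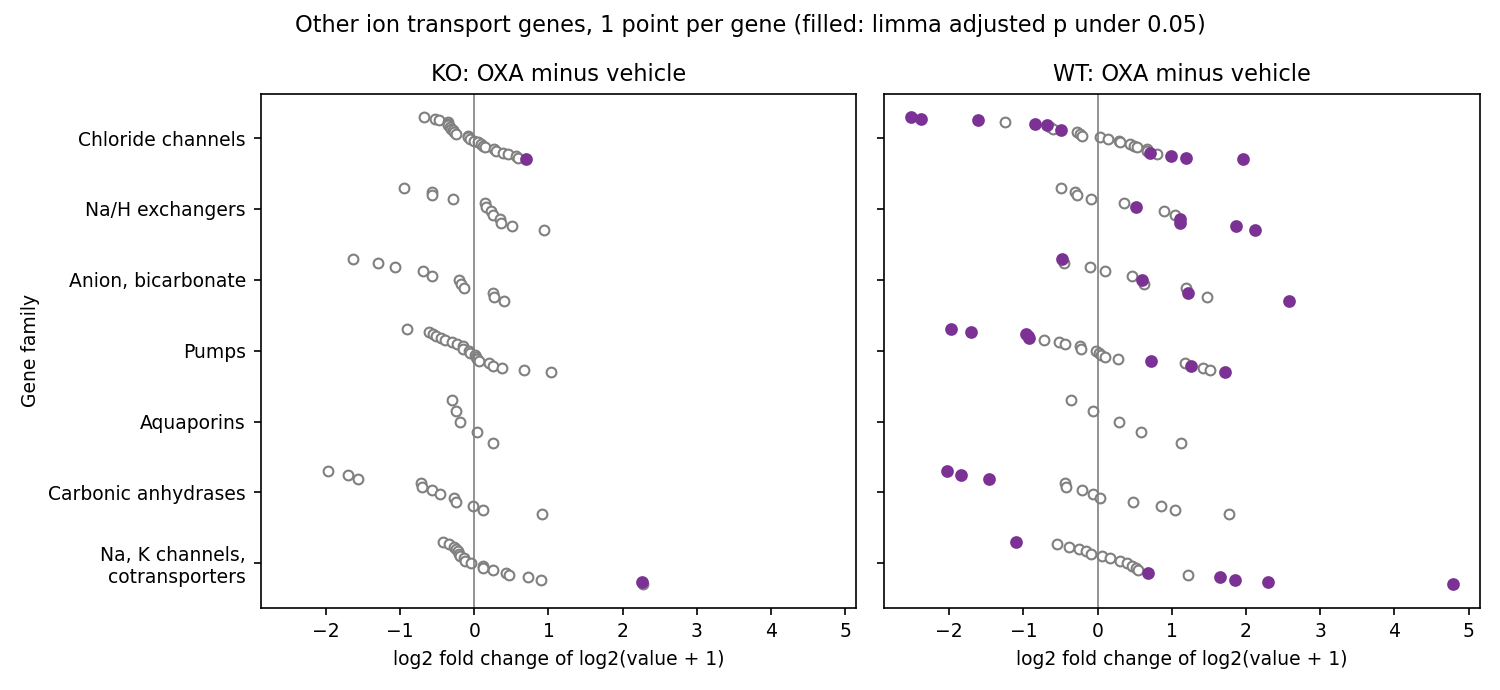
Log2 fold change of log2(value + 1) with OXA (horizontal axis) for the 106 other transport genes by family (vertical axis), 1 point per gene, in KO (left) and WT (right). Filled points passed limma at an adjusted p under 0.05. In KO 2 points are filled, Clca2 and Slc5a8, and in WT 36, with Slc5a8 farthest right at 4.79.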

How the data were processed

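RNA of whole mouse esophagus was extracted with TRIZOL and sequenced as CEL-Seq libraries on a NextSeq550, per the labels' protocols. Per the submitters' processing notes, the authors used FastQC 0.11.5, Trim Galore, cutadapt 1.10, TopHat2 2.1.0, Bowtie2 2.2.6, HTSeq 0.6.1 and DESeq2 1.28.0 with GRCm38. Which annotation release was used, and how strand and UMIs were treated, is not given in the sources used here. Each deposited value is a signal (a gene's count over the size factor of its library), and within a library all values were whole multiples of 1 step. Reads recovered on that basis were whole for 100% of values (tolerance 0.1 of a read) and gave the depth. Intervals and floors from them cover counting error only.

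Genes reaching 5 in 4 or more libraries (16748) were tested on log2(value + 1) by limma 3.58.1 (R 4.3.3), with 4 group means over all 16 libraries and eBayes with a trend. All p-values are two-sided and adjusted over all genes tested, and the fold changes understate the change of low genes. Alternatives were pseudocounts of 0.5 and 5, no filter (27009 genes), a filter of 20 (13871 genes), equal library totals, quantile scaling, only the groups compared, no trend, array weights, reads thinned to 5.61 M, edgeR 4.0.16 (quasi-likelihood) and DESeq2 1.42.0 on the recovered reads, and each library left out in turn. The fits were tested on simulated data. Running every alternative for the other transport genes, and the Slc26a4 sum without 1 library, were chosen after seeing the data.

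The 8 genes, the transport and marker lists and the tests were chosen with earlier results of these data known. The text names the 8 genes, the 12 other transport genes with the smallest p per comparison among those called and averaging 10 or more in the higher group, a set of family relatives, and per transporter the 3 named genes with the highest r. Names outside that rule are said to be so, and a few genes that it names are not reported here.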

Additional observations from a re-analysis of the deposited data

Results flagged for a closer look

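In 162 groups of 4 libraries, 19 held a library far from the other 3 of its group, measured as its gap to the nearest of them over the group's range. Chance marks about 1 group in 20 of continuous values, a rate that does not apply to the 12 of the 19 where the other 3 libraries were at 0. WT vehicle replicate 4, the shallowest library (5.61 M reads), was low for Car2 (8.91) and high for Aqp3 (5349), Ano1 (377), Slc26a4 (4.46) and the calcium pump Atp2a2 (2487). Without it the OXA effects in WT were 0.83 for Aqp3 (limma adjusted p = 0.00205), -1.04 for Slc26a9 (0.00229), -1.31 for Slc9a3 (0.00321) and -2.88 for Atp12a (0.00352), 0.07 for Ano1 (0.797) and -0.27 for Car2 (0.731). WT OXA replicate 1 was low for Aqp3 (4747) and alone held Aqp5 reads (1.45).

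Other single libraries stood out among relatives of the transporters, most of them genes at 0 in the other 3 libraries. KO OXA replicate 4 was high for Cftr (39.4), Slc26a3 (27.6) and Clca3b (0.79), the first of these a chloride channel and the second an anion exchanger of absorptive and secretory epithelia. KO OXA replicate 2 was high for Atp4a (1.19) and Atp2b1 (2046). KO vehicle replicate 2 was high for Cftr (6.04), Car6 (6.90) and Aqp9 (39.7), and KO vehicle replicate 1 for Clca3b (1.95). WT OXA replicate 3 was high for Clca3b (2.75), WT vehicle replicate 1 for Cftr (1.38) and WT vehicle replicate 2 for Slc26a3 (4.64).

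The OXA effect differed between the genotypes, by the interaction term of the limma fit, for 18 of the 37 named genes tested, where 17.8% of all genes were called; many of them were named for a small p in this comparison, so their count is no result. The KO effect minus the WT effect, on the log2(value + 1) scale, was positive for Slc26a9 (1.04), Slc9a3 (1.30), Clic3 (1.53), Clcn4 (0.61), Fxyd3 (1.74), Fxyd2 (2.04), Atp1b3 (0.87), Car12 (1.96) and Car13 (2.94). It was negative for Aqp3 (-0.88), Slc4a7 (-0.97), Slc4a11 (-2.31), Slc5a8 (-2.52), Ano6 (-1.07), Clic4 (-1.29), Atp2a2 (-0.70), Atp2b1 (-0.89) and the IL-13 target Chil4 (-5.95). For Atp1b3 and Clcn4 the difference was lost with equal library totals (adjusted p = 0.189 and 0.485) and with quantile scaling (0.168 and 0.0593). For Atp2b1 it was lost in 13 settings, edgeR (0.0513) among them.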

How the results depend on the processing

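For the 7 tested transporters, 875 of 947 values under another setting kept their direction and their side of the threshold. Of the others, 33 lost a call, 7 gained one and 32 changed sign. Most of the values came from comparisons without a call, as in KO and under vehicle, and had none to lose. The lost calls lay mainly in the difference between genotypes. With 1 library left out, that difference was lost 12 times for Slc26a9, 8 for Slc9a3 and 2 for Aqp3. No value that was called changed sign. The number of transporters whose OXA effect differed between the genotypes was 3, but 1 without the filter, 1 with equal library totals and 1 without the trend, and 0 to 3 with 1 library left out. In WT, 3 to 4 transporters were called with 1 library left out. Of the other transport genes, equal library totals left 0 of 2 calls in KO, and 29 in place of 18 for the difference between genotypes. Over all 16832 genes tested under that scaling, the difference was positive for 883 and negative for 3467, against 1698 and 1284 of 16748 otherwise. In KO, 226 of all genes were higher and 19 lower, against 303 and 15. The cause was not tested. Relative to the median of all genes, the WT effects under that scaling were -0.89 in place of -0.90 for Slc26a9, -1.24 under both for Slc9a3, -3.26 in place of -3.15 for Atp12a, 0.62 in place of 0.61 for Aqp3 and -0.19 in place of -0.20 for Ano1. The scaling multiplies all genes of a library alike, so subtracting the median removes most of its shift. That these values are close is therefore no check of the calls, and the Slc26a9 call in WT was lost under that scaling.

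Sign changes concerned values near 0, none of them called. In WT the OXA effect on Ano1 was 0.22 with equal library totals and -0.17 to 0.072 (without WT vehicle replicate 4) with 1 library left out. That on Car2 was -0.23 with quantile scaling, -0.13 with array weights, -0.0087 in edgeR, -0.042 in DESeq2 and -0.27 to 0.19 with 1 library left out. The difference between genotypes for Slc26a4 was 0.55 with quantile scaling, 0.14 with thinned reads, 2.42 in edgeR, 1.44 in DESeq2 and -0.88 to 0.49 with 1 library left out. For Car2 it was -0.036 with equal library totals and -0.12 with thinned reads. KO minus WT under vehicle was, for Atp12a, -0.12 with quantile scaling, -0.0106 in edgeR, -0.0125 in DESeq2 and -0.30 to 0.29 with 1 library left out, and for Ano1 -0.090 to 0.18. Leaving out any of 4 libraries put Slc26a4 under the filter.

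No paired analysis was possible because the labels give no replicate number shared between groups: the codes in the titles differ from group to group. Of 52 named calls of other transport genes, 36 held under every setting. Slc26a4 (122 reads), Atp12a (174), Car2 (310) and Aqp5 (4) are limited by depth, and WT OXA was the deepest group and WT vehicle the shallowest.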
